A study of Mus with 3 samples.

Results

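Collagens and other genes of the extracellular matrix were followed over the cells of MC38 tumors. The set held every gene with a symbol of the form Col, number, a, number, together with 20 named genes for matrix glycoproteins and proteoglycans (Sparc, Fn1, Bgn, Dcn, Lum, Postn, Tnc, Thbs1), secreted regulators (Ccn1, Ccn2), hyaluronan synthases (Has1, Has2), collagen maturation (Lox, Loxl2, Pcolce), proteases (Mmp2, Mmp14) and their inhibitors (Timp1, Timp2, Timp3). Of the 32285 genes measured, 64 were named by this rule, 44 of them collagens, and 36 had 30 or more unique molecular identifiers (UMIs, each of which counts 1 captured RNA molecule) in the barcodes kept. Among the 36 were 19 collagens and 17 other genes. The 28 genes left out comprised 25 collagens, 10 of them with no UMI, and Tnc (15 UMIs), Lum (10 UMIs) and Lox (1 UMI). Just above the minimum lay Postn (38 UMIs), Col9a3 (35 UMIs) and Col14a1 (34 UMIs), and just below it Col17a1 (25 UMIs), Col11a2 (22 UMIs) and Col28a1 (16 UMIs).

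The extracellular matrix is the protein and polysaccharide scaffold between cells. Fibrillar collagens such as types I, III and V form its fibers, collagen IV builds basement membranes, and small proteoglycans such as biglycan (Bgn) and decorin (Dcn) bind the fibers. Metalloproteinases and their tissue inhibitors, the TIMPs, govern its turnover, and in tumors it is laid down by stromal cells and by some tumor cells.

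MC38, a mouse colon adenocarcinoma line, was grown under the skin for 16 days in mice of 3 genotypes. RARα-KO mice carried a Cre driven by the distal Lck promoter and a floxed Rara gene, which encodes a retinoic acid receptor, and RARα-TG mice carried Rara under the CD2 promoter. Both constructs act in T cells, so tumor cells and macrophages were not their targets. Hashtag antibody C0301 marked cells of the WT tumor, C0302 those of RARα-KO and C0303 those of RARα-TG, and per the labels 30000 T cells (CD45.2+ CD3+) and 10000 total cells of each genotype were sorted and pooled into 1 library. The share of each cell class was thereby set by the sort. Control strains named for the study were C57BL/6 and dLck-Cre, and mice in most of its experiments were age-matched young adults of both sexes. The strain of the WT tumor, the age of its host and the number of mice behind each genotype were not given for this library in the sources used here. The labels give spleen and activated naive CD8 T cells as the source, against the tumor protocol in the same labels, which was followed here. Each genotype was 1 sample without replicates, so no test was made and all intervals are 95% intervals for counting error only, covering neither mice nor tumors. KO/WT and TG/WT comparisons share the WT sample.

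The 5600 barcodes kept had 500 or more gene UMIs, with a median of 4808 UMIs. By their hashtags 1930 cells were WT, 2109 RARα-KO and 896 RARα-TG, while 427 barcodes with more than 1 hashtag were removed and 238 had none. Cells were clustered without the 64 genes of the rule, and the class referred to as MC38 or stromal held 593 cells with a median of 24733 UMIs, of which 289 were WT, 135 RARα-KO, 23 RARα-TG and 146 without a hashtag. Its name was checked against markers outside the set. Cald1, a gene of non-blood cells, was at 553 CPM (UMIs per 1000000 gene UMIs) against 2.23 CPM in macrophages and 1.24 CPM in T cells, and Cavin3 at 491 CPM against 1.12 and 0.46 CPM. Cd9, of the same marker list, was at 927 CPM but also at 724 CPM in macrophages and 2571 CPM in neutrophils and did not set the class apart. By contrast, the epithelial keratins and Epcam were almost absent, with 4 UMIs of Krt19, 2 of Krt8, 2 of Epcam, 1 of Krt7 and 0 of Krt18 among 15419685 UMIs. Of the 10 fibroblast markers 9 had at least 1 UMI (Twist1 148 CPM, Pdpn 131 CPM, Pdgfrb 37.5 CPM, Pdgfra 10.3 CPM), among them Fap with 4 UMIs. Cdh11 had 0 UMIs. Pdpn was higher in macrophages, at 496 CPM. The fibroblast list summed to 457 CPM in this class and 501 CPM in macrophages, so its sum did not set the class apart. The 4 pericyte markers summed to 53.6 CPM and the 8 endothelial markers to 4.73 CPM, with Kdr, Cldn5, Emcn and Tie1 at 0. MC38 cells and host stromal cells could therefore not be told apart by these markers, and both names are kept. Rara was at 87.2 (WT), 80.2 (RARα-KO) and 249 CPM (RARα-TG) in T cells, which checks the transgene; counts per gene do not show whether reads fell in the deleted part.

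Matrix genes were concentrated in the MC38 or stromal cells. The 36 genes together made up 12098 CPM there, against 2611 CPM in 254 macrophages, 3318 CPM in 58 neutrophils, 122 CPM in 102 dendritic cells and 64.7 CPM in 4003 T cells. Since each molecule is counted once at its 5′ end, these levels need no scaling by transcript length. Sparc, Bgn and Col3a1 alone held 42.1% of the matrix UMIs of the MC38 or stromal cells, and the first 9 genes held 80.8%.

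Among the glycoproteins and proteoglycans, Sparc (osteonectin, ENSMUSG00000018593, GRCm38 chromosome 11, 55394159 to 55420080), which binds collagen, was at 1947 CPM (95% interval 1925 to 1969) in MC38 or stromal cells, at 3.35 CPM in macrophages and at 2.07 CPM in T cells. Bgn (ENSMUSG00000031375, chromosome X, 73483601 to 73495936) was at 1772 CPM (1751 to 1793), against 3.35 and 1.88 CPM in macrophages and T cells, and Dcn was at 573 CPM against 0.78 CPM in T cells. The MC38 or stromal level was 942 times that in T cells for Sparc and for Bgn, and 735 times for Dcn. Postn, which encodes the matrix protein periostin, was near the limit of detection at 1.36 CPM. Fn1 (fibronectin, ENSMUSG00000026193, chromosome 1, 71585473 to 71653280) and Thbs1 (thrombospondin 1, ENSMUSG00000040152, chromosome 2, 118111876 to 118127133) had the opposite pattern. Fn1 was at 45.4 CPM (42.1 to 48.9) in MC38 or stromal cells and at 796 CPM (755 to 838) in macrophages. Thbs1 was at 2.08 CPM in MC38 or stromal cells, at 1419 CPM (1364 to 1475) in macrophages and at 2901 CPM (2599 to 3230) in neutrophils, so that only 1.64% of its UMIs lay in the MC38 or stromal cells.

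Of the fibrillar collagens, Col3a1 (ENSMUSG00000026043, chromosome 1, 45311538 to 45349706) was the highest at 1372 CPM (1354 to 1391). The 2 chains of collagen I followed far below it, Col1a2 at 174 CPM (167 to 180) and Col1a1 at 165 CPM (159 to 172). Of the collagen V chains, Col5a1 was at 111, Col5a2 at 35.3 and Col5a3 at 30.7 CPM. The cartilage and minor fibrillar types were close to 0, with Col27a1 at 1.30 CPM in this class and 7.12 CPM (2.61 to 15.5, 6 UMIs) in dendritic cells. Collagen VI, which forms beaded microfibrils, was represented by all 3 of its classical chains, Col6a1 at 279, Col6a2 at 234 and Col6a3 at 130 CPM. The basement membrane chains Col4a1 (30.03 CPM), Col4a2 (33.1 CPM) and Col4a5 (3.57 CPM) were lower, as were Col18a1 at 11.1 CPM and Col7a1, the anchoring fibril collagen, at 8.04 CPM. Among the remaining types, Col16a1 was at 85.1, Col8a1 at 58.1, Col14a1 at 1.95 and Col9a3 at 1.43 CPM.

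The regulators and enzymes spanned as wide a range. Ccn1, a secreted integrin ligand, was at 1071 CPM (1055 to 1088) and its relative Ccn2 at 3.63 CPM. The hyaluronan synthase Has1 was at 648 CPM (635 to 661), while Has2 was at 3.31 CPM. Pcolce, which enhances the cleavage of procollagen, was at 723 CPM (709 to 736), and Loxl2, a lysyl oxidase that crosslinks collagen, at 67.3 CPM. Ccn1 and Has1 thus supplied nearly all transcripts of their pairs.

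Proteases and inhibitors were shared more widely between classes. Mmp2, a gelatinase, was confined almost entirely to MC38 or stromal cells with 896 CPM (881 to 911) and 99.7% of its UMIs. Mmp14, the membrane protease that activates pro-MMP2, was at 194 CPM there, 124 CPM (108 to 141) in macrophages, 39.2 CPM in dendritic cells and 2.20 CPM in T cells. Timp2 (ENSMUSG00000017466, chromosome 11, 118301061 to 118355411) was the one member with a clear level in T cells, at 770 CPM (756 to 784) in MC38 or stromal cells, 374 CPM (270 to 503) in neutrophils, 155 CPM (137 to 174) in macrophages and 45.9 CPM (43.2 to 48.9) in T cells. Timp1 was at 352, 91.5 and 0.50 CPM in MC38 or stromal cells, macrophages and T cells, and Timp3, which stays bound to the matrix, was at 264 CPM in MC38 or stromal cells and 0.23 CPM in T cells.

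**Figure D1:**
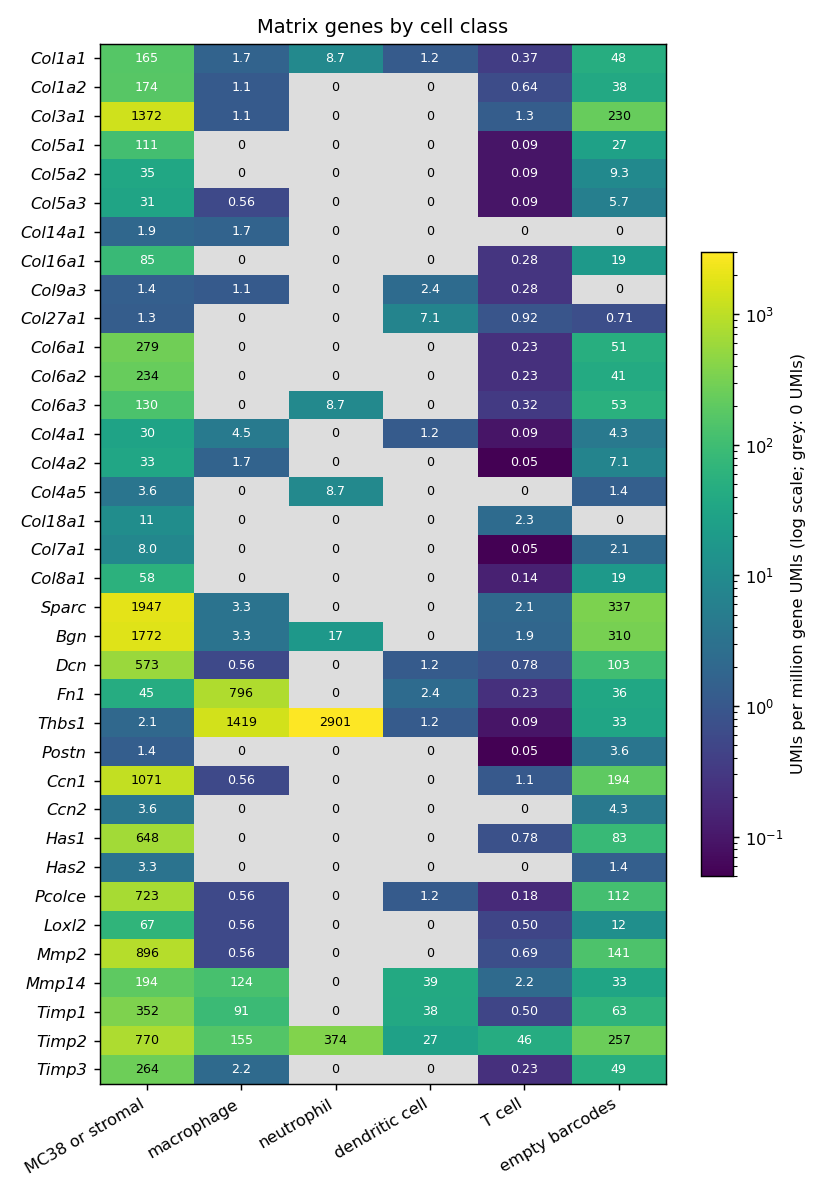
Level of each of the 36 matrix genes (vertical axis, ordered by role) in 5 cell classes and in empty barcodes, in CPM on a logarithmic color scale, with the value printed in each cell and 0 in grey. The left column, the MC38 or stromal cells, is the highest for nearly all genes, whereas Fn1 (796 CPM) and Thbs1 (1419 CPM) peak in macrophages or neutrophils.

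Counted over genes, 33 of the 34 members with 30 or more UMIs in the MC38 or stromal and T cells together were 2-fold or more higher in the MC38 or stromal cells, where 27.5% of all 12589 genes tested were. The exception was Col27a1, with a log2 ratio of 0.50. The median log2 ratio was 8.63 for the members and 0.10 for all genes. Against macrophages 28 of 33 members were 2-fold or more higher in MC38 or stromal cells, against 40% of 11418 genes, and Fn1 and Thbs1 were lower, where 14.3% of genes were. The median log2 ratio was 5.78 against 0.66 for all genes. Between macrophages and T cells, 5 of 9 members (Fn1, Thbs1, Timp2, Mmp14 and Timp1) were 2-fold or more higher in macrophages, against 12.3% of genes, and neither of the 2 collagens tested was. Because a gene could reach the minimum through a single class, these counts describe the genes that reached it and not all 36.

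Some matrix RNA was found in barcodes without a cell. The 223795 barcodes with fewer than 100 gene UMIs together held 2328 CPM of the 36 genes, and the median log2 ratio of MC38 or stromal cells to these empty barcodes was 2.30. T cells carried a median of 0.28% of the MC38 or stromal level (quartiles 0.11% and 3.48%), and 0.90% of them had a Sparc UMI and 0.42% a Col3a1 UMI at a median depth of 4370 UMIs, against 93.4% and 81.8% of MC38 or stromal cells. For Timp2 the share was 14.7% of T cells, or 5.37% after each cell was thinned to 1000 UMIs. Free RNA can give UMIs in droplets of cells that do not express a gene, and so can doublets that remain. The part of either in the T cell shares of Sparc and Col3a1 was not tested. Shares as low as these are not read here as expression by T cells.

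Within the MC38 or stromal cells the genotypes were compared next. Summed over the 36 genes, levels were 12055 (WT), 11724 (RARα-KO) and 14230 CPM (RARα-TG), which gave log2 ratios to WT of −0.04 (−0.06 to −0.02) for KO and 0.24 (0.20 to 0.28) for TG. The 19 collagens summed to 2805 (WT), 2441 (RARα-KO) and 3620 CPM (RARα-TG). One of 31 members tested, Has2, passed 2-fold between RARα-KO and WT, where 2.71% of all genes did, and 3 of 31 (Col7a1, Ccn2 and Fn1) passed it between RARα-TG and WT, where 14.6% did. Both counts were close to or below the share among all genes. The median log2 ratio of the members was −0.02 in KO/WT and 0.27 in TG/WT, beside 0.01 and −0.05 for all genes. For the 16 collagens tested it was −0.10 in KO/WT, with 11 below 0, and 0.56 in TG/WT, with 12 above 0. Of all genes tested, 52.4% lay above 0 in KO/WT and 43.7% in TG/WT. The RARα-TG values rest on 23 cells and 384830 UMIs, and the TG/WT sum moved to −0.0031 when every cell weighed the same. T cell markers in these cells summed to 23.02 (WT), 77.0 (RARα-KO) and 309 CPM (RARα-TG), and 10, 7 and 4 of the cells had a T cell receptor clonotype; their part in the differences was not tested.

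Has1 had the KO/WT ratio farthest from 0 among the 28 members with 100 or more UMIs in the class. It was at 737 CPM (719 to 755) in WT, 440 CPM (420 to 460) in RARα-KO and 707 CPM (625 to 796) in RARα-TG cells. Its log2 ratio was −0.74 (−0.82 to −0.67) in KO/WT, between −0.81 and −0.54 under all 14 other ways of computing it, and −0.06 (−0.24 to 0.12) in TG/WT. Has1 was thus lower in the RARα-KO sample than in WT beyond counting error. The TG/WT value was not settled, with −0.95 without the cells of a cluster led by Gsn and Lbp, −0.62 when a genotype needed 80% of a cell's hashtag UMIs and 0.21 without clonotype-bearing cells. Has2 was at 3.89 (WT), 1.83 (RARα-KO) and 2.60 CPM (RARα-TG), with 8 UMIs in RARα-KO and 1 in RARα-TG.

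Of the collagens with 100 or more UMIs in the class, Col5a3, Col5a1 and Col6a2 had the KO/WT ratios farthest below 0. Col5a1 was at 119 (WT), 81.2 (RARα-KO) and 159 CPM (RARα-TG; log2 −0.55 in KO/WT and 0.41 in TG/WT). Col5a3 was at 33.4, 21.8 and 31.2 CPM in the same order (−0.62 and −0.10), while Col5a2, at 34.0, 33.5 and 49.4 CPM, showed little KO/WT difference (−0.02 and 0.54). After thinning, the KO/WT ratio was −0.70 for Col5a1 and −0.049 for Col5a3. Over all cells the 3 collagen VI chains had the same order, with RARα-KO lowest and RARα-TG highest. Col6a2 was at 240 (WT), 181 (RARα-KO) and 408 CPM (RARα-TG; −0.40, −0.52 to −0.28, and 0.77, 0.53 to 1.0). Col6a1 was at 286, 237 and 439 CPM (−0.27 and 0.62), and Col6a3 at 136, 117 and 172 CPM (−0.22 and 0.34). The signs of Col6a1 and Col6a2 held in all 14 other ways of computing each ratio, whereas after thinning those of Col6a3 turned, to 0.044 in KO/WT and −1.35 in TG/WT.

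The fibrillar types I and III gave less settled values. Col3a1 was at 1406 (WT), 1182 (RARα-KO) and 1650 CPM (RARα-TG; −0.25, −0.30 to −0.20, and 0.23, 0.11 to 0.35), but its KO/WT ratio was 0.18 with the 80% hashtag rule and its TG/WT ratio −0.38 after thinning. Col1a1 was at 149, 175 and 242 CPM (0.24 and 0.70), and its KO/WT ratio turned to −0.22 without the cell with the most Col1a1 UMIs of each genotype. Col1a2 was at 169, 188 and 161 CPM (0.15 and −0.07), and its KO/WT ratio turned to −0.06 in the same way. Col16a1 was at 91.6, 77.0 and 90.9 CPM, and Col8a1 at 60.02, 55.9 and 90.9 CPM. Col4a1 (28.8, 28.7 and 26.0 CPM) and Col4a2 (29.6, 34.6 and 44.2 CPM) had KO/WT ratios of −0.0048 and 0.23 over all cells but −1.37 and −2.23 after thinning. Col18a1 was at 9.85, 9.17 and 18.2 CPM, and Col7a1 at 6.76, 7.57 and 28.6 CPM, the last from 11 UMIs (log2 2.08, 1.0 to 3.02).

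Apart from Has1, the KO/WT ratios of the glycoproteins, regulators, enzymes and inhibitors with 100 or more UMIs lay between −0.30 (Loxl2) and 0.24 (Timp3). Sparc was at 1926 (WT), 1817 (RARα-KO) and 2591 CPM (RARα-TG; −0.08 and 0.43, 0.33 to 0.52), Bgn at 1739, 1855 and 1954 CPM (0.09 and 0.17), and Dcn at 523, 534 and 764 CPM (0.03 and 0.55, 0.37 to 0.72). The TG/WT ratios of Sparc and Dcn stayed above 0 in all 14 other ways of computing them, but were 0.16 and 0.03 when every cell weighed the same. Fn1 was at 47.7, 43.6 and 20.8 CPM, the last from 8 UMIs (log2 −1.20, −2.42 to −0.20), and its KO/WT ratio of −0.13 was −0.79 without the top cells. Ccn1 was at 1053, 1143 and 1323 CPM, with a TG/WT ratio of 0.33 that turned to −0.17 without the top cells, and Ccn2 had 5 UMIs in RARα-TG (12.99 CPM, against 3.44 CPM in WT). Of the processing enzymes, Pcolce was at 710, 746 and 717 CPM and Loxl2 at 68.4, 55.5 and 67.6 CPM (−0.30 and −0.02). Mmp2 was at 897, 951 and 878 CPM and Mmp14 at 195, 209 and 151 CPM. The inhibitors lay close together as well, Timp1 at 344, 393 and 288 CPM (0.19 and −0.26), Timp2 at 743, 783 and 894 CPM (0.076 and 0.27) and Timp3 at 259, 305 and 239 CPM (0.24 and −0.11). With the 80% hashtag rule the KO/WT ratios of Timp1 and Timp3 were −0.084 and −0.028, and that of Ccn1 was −0.16.

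**Figure D2:**
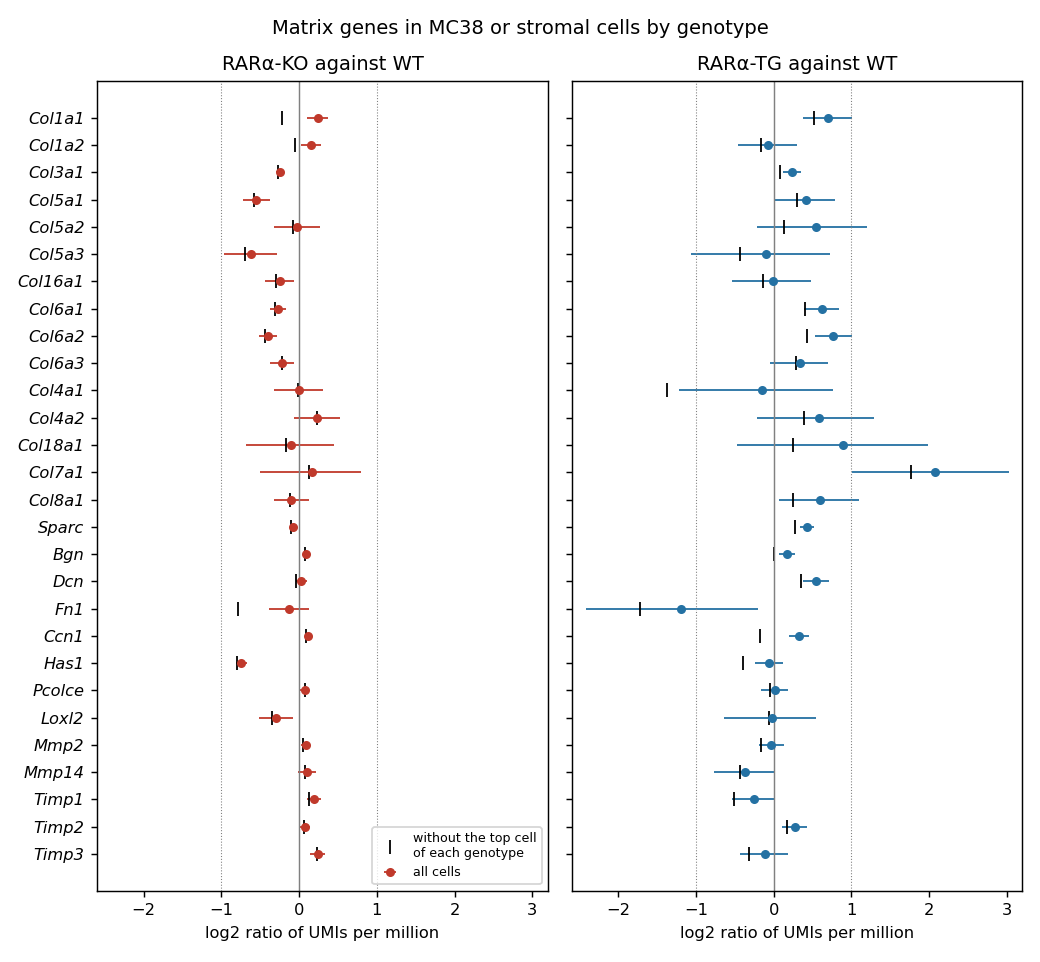
Log2 ratio of CPM (horizontal axis) of RARα-KO to WT (left) and RARα-TG to WT (right) in MC38 or stromal cells, for the 28 members with 100 or more UMIs there; points are all cells with 95% counting intervals, black ticks the values without the top cell of each genotype, and dotted lines mark 2-fold. Has1 (−0.74) lies lowest on the left, most collagens on the right lie above 0 with wide intervals, and the Col1a1 tick on the left lies across 0 from its point.

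Cells of this class varied widely among themselves. In the 507 cells of its larger cluster, Bgn (median 1687 CPM per cell, 10th to 90th percentile 589 to 3307) and Sparc (1672 CPM, 598 to 4471) were present in 99.0% and 99.4% of cells. Col3a1 reached from 24.9 CPM at the 10th to 5501 CPM at the 90th percentile with a median of 386 CPM, and Dcn from 0 to 2238 CPM with a median of 155 CPM. A single RARα-KO cell of 12794 UMIs held 224 Col1a1 UMIs, where the next cell held 34, and thereby 29.3% of all Col1a1 UMIs of RARα-KO; it was singled out after its values were seen. It also held 339 UMIs of Col3a1, 125 of Col1a2, 96 of Dcn, 77 of Fn1, 19 of Col14a1, 9 of Postn and 9 of Lum. It had no UMI of Cd9, Sox9, Slurp1 or Cav1, which reached 939, 626, 293 and 189 CPM in the other cells of the cluster. Of 514 MC38 or stromal cells with 5000 or more UMIs, 5 lacked Cd9, Sox9 and Slurp1, and only this one of the 5 had Col3a1. A cell of 9750 UMIs without a hashtag held the most Col4a1 (34 UMIs), Col4a2 (18 UMIs) and Col18a1 (5 UMIs).

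At a finer resolution the class split into 4 clusters, again formed without the genes named by the rule. Matrix genes outside the rule were not left out. The 36 genes summed to 10687 CPM in 307 cells led by Cryab and Slurp1, 8040 CPM in 111 dividing cells led by Ube2c and Anln, 5269 CPM in 87 cells of low depth (median 2273.5 UMIs, with its 3 barcodes of more than 1 hashtag included) and 28590 CPM in 88 cells led by Gsn and Lbp. Col3a1 was at 771 CPM in the first, 278 CPM in the dividing, 290 CPM in the low-depth and 6638 CPM in the Gsn and Lbp cluster. Dcn was at 307, 140, 240 and 2766 CPM in the same order, Col1a1 at 128, 99.1, 14.5 and 505 CPM, Col6a1 at 227, 182, 69.5 and 754 CPM, and Sparc at 1774, 1281, 1340 and 4311 CPM. The Gsn and Lbp cluster was the highest of the 4 for 32 of the 36 genes. The exceptions were Timp1 and Has2, highest in the dividing cells, Col9a3 in the cluster led by Cryab and Slurp1, and Col27a1 in the low-depth cells. The share of all genes highest in the Gsn and Lbp cluster was not computed, so the count of 32 is not read as a result about the members. Some of the 32 rest on few UMIs. Among the 507 cells above, the top cell of each gene held 45% of the Postn, 34.4% of the Thbs1 and 63.3% of the Col14a1 UMIs. Against the cluster led by Cryab and Slurp1, 17 of 32 members were 2-fold or more higher, where 4.57% of 10362 genes were, with a median log2 ratio of 1.21 against −0.00. Timp2, at 816 against 1070 CPM, and Mmp14, at 211 against 320 CPM, differed by less than 2-fold. These values are a description, since clusters are drawn from the cells they describe. Fbn1, Prelp and Ogn, matrix genes outside the rule, were also among the leading genes of the Gsn and Lbp cluster. The high matrix levels of this cluster are therefore not taken as independent of how it was drawn. How far such genes shaped the clusters was not tested.

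The Gsn and Lbp cluster made up 16.3% (Clopper-Pearson interval 12.2% to 21.0%) of the WT, 12.6% (7.51% to 19.4%) of the RARα-KO and 26.1% (10.2% to 48.4%, 6 of 23 cells) of the RARα-TG cells of the class. Without this cluster the TG/WT ratio of the sum fell from 0.24 to 0.06 and the KO/WT ratio of Col3a1 went from −0.25 to 0.08.

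**Figure D3:**
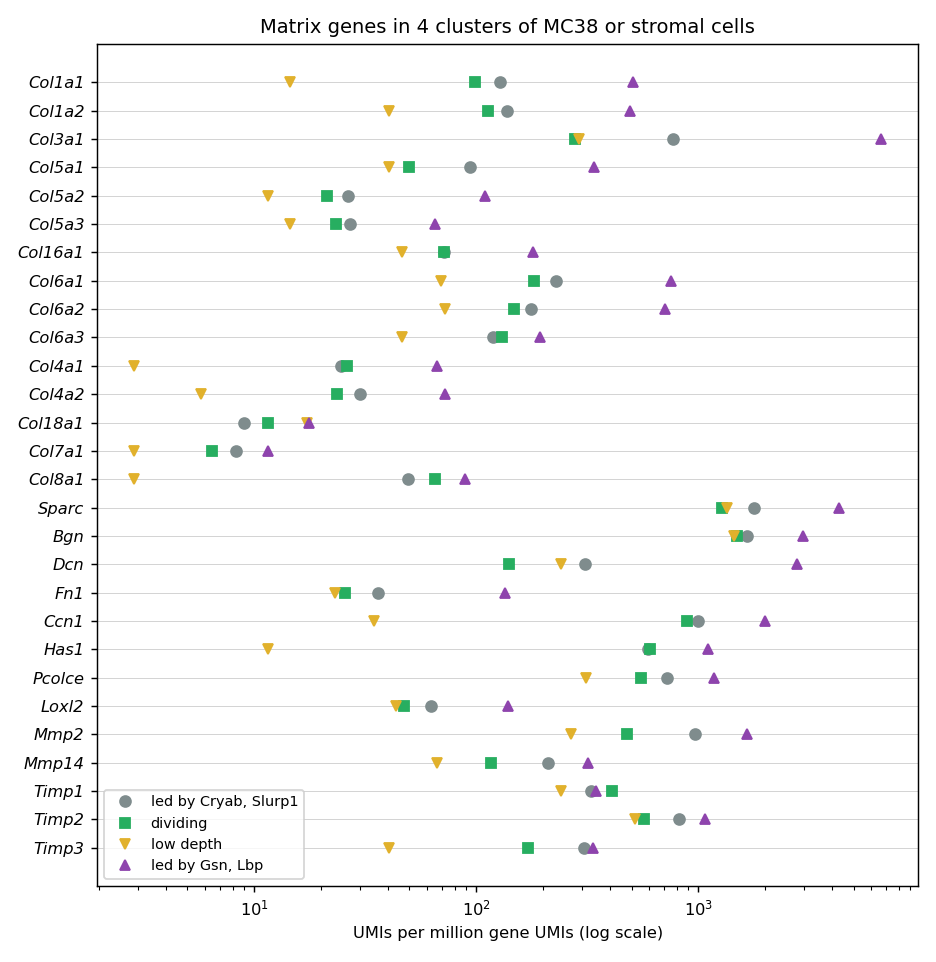
Level of 28 matrix genes in CPM (horizontal axis, logarithmic) in the 4 clusters of MC38 or stromal cells, 1 symbol per cluster. The triangles of the cluster led by Gsn and Lbp lie to the right for most genes, by the widest gaps for Col3a1 (6638 against 771 CPM) and Dcn (2766 against 307 CPM).

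In macrophages 5 members had enough counts to be followed over the genotypes, 77 WT, 128 RARα-KO and 35 RARα-TG cells. Both secreted glycoproteins were lowest in RARα-KO and highest in RARα-TG. Fn1 was at 875 CPM (800 to 955) in WT, 313 CPM (278 to 351) in RARα-KO and 2414 CPM (2223 to 2616) in RARα-TG, with log2 ratios to WT of −1.48 (−1.69 to −1.27) and 1.46 (1.29 to 1.64). The share of macrophages with an Fn1 UMI was 61.0% (WT), 37.5% (RARα-KO) and 82.9% (RARα-TG) at median depths of 6712, 6455 and 6630 UMIs, and the median level per cell was 375, 0 and 2004 CPM. The difference was thus spread over many cells, and the ratios stayed between −1.52 and −1.24 (KO/WT) and between 1.27 and 1.63 (TG/WT) under 11 other ways of computing them. Thbs1 was at 1458 (WT), 969 (RARα-KO) and 3137 CPM (RARα-TG), with log2 ratios of −0.59 (−0.73 to −0.45) and 1.11 (0.96 to 1.25). Its KO/WT ratio turned to 0.48 (0.22 to 0.75) with the 80% hashtag rule.

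Of the inhibitors, Timp1 was at 109 (WT), 57.7 (RARα-KO) and 191 CPM (RARα-TG; −0.92 and 0.80). Timp2 was at 83.3, 189 and 163 CPM (1.18 and 0.96), but 113 of its 177 RARα-KO UMIs lay in 1 cell, and without the top cell of each genotype the KO/WT ratio was 0.10. That cell, of 26731 UMIs, had 140 UMIs of C1qb and 231 of Mmp12, macrophage genes, and 0 of Sparc. The protease Mmp14 was at 144, 123 and 97.5 CPM (−0.23 and −0.56). In all, 2 of 5 members passed 2-fold in KO/WT (Timp2 up, Fn1 down), where 7.52% of genes did, and 2 of 5 in TG/WT (Fn1 and Thbs1 up), where 12.1% did. The median gene with 50 or more UMIs in both genotypes lay at a log2 TG/WT ratio of 0.19 in macrophages, and relative to it Thbs1 fell under 2-fold. One RARα-TG cell held 135 of the 772 Thbs1 UMIs of that genotype, and the top 5 of its 35 cells held 54.9%. Without the top cell of each genotype the log2 TG/WT ratio was 0.96 for Thbs1, under 2-fold, and 1.07 for Timp2.

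UMIs of Fn1 and Thbs1 overlapped in part. Of the 254 macrophages, 91 had UMIs of both, 39 of Fn1 only, 58 of Thbs1 only and 66 of neither. An Fn1 UMI was found in 61.1% of the macrophages with Thbs1 and in 37.1% of the others. Other genes of these cells differed between genotypes as well. The 13 macrophage or monocyte markers summed to 13699 (WT), 8441 (RARα-KO) and 17374 CPM (RARα-TG), among them Lyz2 at 7158, 3015 and 10475 CPM in the same order. Markers of this list did not move together in TG/WT. The log2 ratio was −0.42 (−0.68 to −0.17) for C1qa and −0.17 (−0.36 to 0.02) for C1qb, but 1.05 (0.39 to 1.71) for Mrc1. The monocyte genes Ly6c2 (444, 905 and 390 CPM) and Ccr2 (104, 102 and 195 CPM) did not share an order, and both were higher in T cells (1033 and 177 CPM) than in macrophages (668 and 114 CPM). T cell markers summed to 170, 764 and 138 CPM, and 2, 11 and 1 macrophages carried a clonotype. Whether these differences in the cells sampled bear on Fn1 and Thbs1 was not tested.

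**Figure D4:**
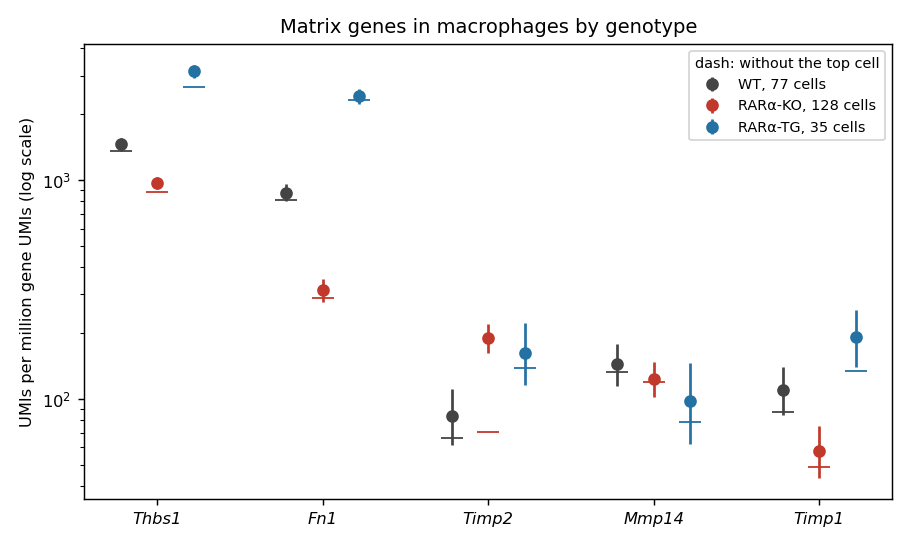
Level of 5 matrix genes in macrophages of the 3 genotypes in CPM (vertical axis, logarithmic), with 95% counting intervals; dashes give the value without the cell with the most UMIs. Fn1 lies at 313 CPM in RARα-KO, 875 CPM in WT and 2414 CPM in RARα-TG, with no overlap of the intervals, while the RARα-KO dash of Timp2 lies far below its point.

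In T cells few matrix genes could be followed. Of the 36 genes, 3 reached 30 UMIs in WT and RARα-KO together and 3 in WT and RARα-TG. Of the first, 2 passed 2-fold in KO/WT (Bgn up, Mmp14 down), where 4.39% of genes did, and of the second, 2 passed it in TG/WT (Timp2 and Col18a1 up), where 9.52% did. Bgn reached the minimum mainly through RARα-KO (27 UMIs against 4 in WT) and Mmp14 mainly through WT (26 against 9 in RARα-KO). Col18a1 did so mainly through RARα-TG (31 against 8 in WT). Genes that enter in this way tend to pass 2-fold, so these counts are no support for a difference. Timp2 made up 1001 of the 1409 matrix UMIs of T cells. It was at 47.2 CPM (42.5 to 52.2) in WT, 25.2 CPM (22.3 to 28.5) in RARα-KO and 109 CPM (97.6 to 121) in RARα-TG T cells, with log2 ratios of −0.90 (−1.14 to −0.67) and 1.20 (0.99 to 1.42). Bgn was at 0.50, 2.57 and 1.56 CPM and Mmp14 at 3.26, 0.86 and 3.74 CPM, levels that rest on 4 to 27 UMIs each. A UMI was carried by 0.80% (Bgn) and 0.87% (Mmp14) of T cells. T cells held 0.14% of all Bgn UMIs and 0.16% of all Sparc UMIs, but 1.55% of those of Mmp14. How much of these levels is free RNA was not tested, and with so few UMIs they are not read as differences in expression.

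Timp2 was unevenly spread over the 10 T cell clusters. It was highest in the 2 clusters with over 1 UMI of Foxp3, the regulatory T cell factor, per cell (202 and 179 CPM) and between 3.29 and 62.1 CPM in the other 8. The Foxp3-high clusters held 21.1% (WT), 9.05% (RARα-KO) and 57.8% (RARα-TG) of T cells and 71.0%, 61.5% and 79.9% of their Timp2 UMIs. Within these clusters Timp2 was at 214 (WT), 228 (RARα-KO) and 166 CPM (RARα-TG), with log2 ratios of 0.09 (−0.20 to 0.38) and −0.37 (−0.62 to −0.12). In the other T cell clusters it was at 16.2, 10.4 and 45.9 CPM, with ratios of −0.64 (−1.04 to −0.24) and 1.5 (1.05 to 1.95). The TG/WT ratio thus lay below 0 within the Foxp3-high clusters and above 0 outside them. The other clusters also differed in make-up between genotypes. The cluster led by Gzmf held 352 WT, 112 RARα-KO and 4 RARα-TG cells, and the cluster led by Ccl5 and Serpine2 held 72, 551 and 1 in the same order. The part of this make-up in the ratios outside was not tested. Col18a1, the source of endostatin, was at 1.004 (WT), 1.05 (RARα-KO) and 9.66 CPM (RARα-TG) in T cells (log2 TG/WT 3.27, 2.11 to 4.60). WT cells had 8 UMIs of Col18a1. It reached the minimum mainly through RARα-TG, and its ratio is given as a description only. Of its 31 RARα-TG UMIs, 28 lay in the Foxp3-high clusters, and the cluster of these with 283 cells, 267 of them RARα-TG, had 25.6 CPM (17.3 to 36.6).

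**Figure D5:**
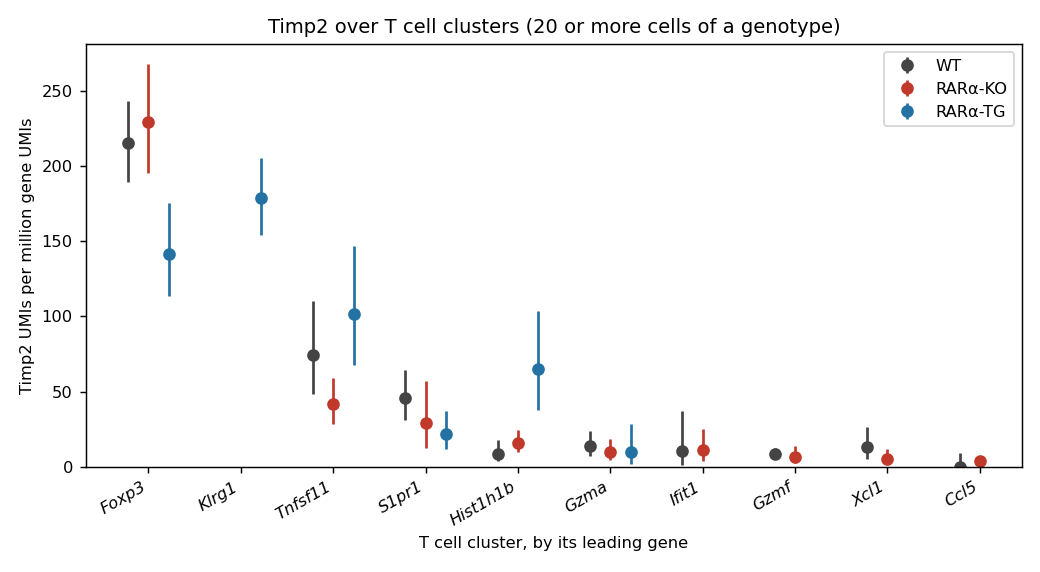
Timp2 in CPM (vertical axis) in the T cell clusters, named by their leading gene and ordered by level, for each genotype with 20 or more cells in a cluster, with 95% counting intervals. The 2 clusters on the left, with over 1 UMI of Foxp3 per cell, lie well above the others (202 and 179 CPM over all genotypes).

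Genes that make or bind the matrix were examined for comparison, in 6 lists that hold none of the 36. Of 22 genes for collagen making tested, 17 were 2-fold or more higher in MC38 or stromal cells than in T cells, where 27.5% of all genes were, led by the collagen chaperone Serpinh1 (1102 CPM), while P4hb (603 CPM) and Ppib (567 CPM), which fold secreted proteins in general, were also high in T cells (241 and 636 CPM). In the basement membrane list 7 of 10 were higher, and its members included Hspg2 (103 CPM) and Lamc1 (71.6 CPM). Of other matrix proteins 14 of 16 were higher, led by Ecm1 (661 CPM), Fstl1 (612 CPM) and Fbln2 (341 CPM). Matrix receptors were more evenly shared, with 9 of 18 higher and 5 lower. The receptors with the most UMIs in MC38 or stromal cells were Itgb1 (330 CPM), Cd47 (316 CPM) and Sdc4 (246 CPM), of which only Sdc4 was 2-fold or more higher than in T cells. Of the TGF-beta genes 7 of 10 were higher, with Ltbp4 at 175, Tgfb1 at 60.3 and Ltbp3 at 35.9 CPM. Tgfb1 itself was at 614 CPM in T cells and at 643 CPM in macrophages. Among the proteases and inhibitors (Ctsl 1258 CPM, Ctsb 342 CPM, Plaur 204 CPM), 9 of 15 were higher against T cells, whereas against macrophages 7 of 20 were higher and 10 lower, beside 40% and 14.3% of all genes.

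By genotype, 0 of 22 collagen-making genes, 1 of 15 other matrix proteins (Mfap5, higher) and 2 of 13 proteases and inhibitors (Adamts5 higher, Adamts4 lower) passed 2-fold in KO/WT in MC38 or stromal cells, where 2.71% of all genes did, and 0 did in the other 3 lists. The RARα-KO cell singled out above held 44 UMIs of Mfap5, and the other cells of the larger cluster held 0. The Mfap5 value is therefore not read as a difference between genotypes. In TG/WT, 4 of 14 other matrix proteins passed 2-fold, all higher (Thbs3, Igfbp7, Ccn4 and Ccn5), where 14.6% of all genes did. So did 1 of 22 collagen-making genes (P4ha2, lower) and 2 of 15 receptors (Itgb3 higher, Itga6 lower), and 0 in the other 3 lists.

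In T cells more of these genes passed 2-fold in TG/WT, where 9.52% of all genes did, and they did so in both directions. Higher were 4 of 12 receptors (Itga3, Itgb5, Ddr1 and Sdc4), 3 of 5 other matrix proteins (Ecm1, Igfbp7 and Ccn4), 2 of 7 proteases and inhibitors (Mmp9 and Ctsl), 2 of 3 basement membrane genes (Lamc1 and Nid2) and 1 of 4 TGF-beta genes (Tgfbr1). Lower were 2 other matrix proteins (Spp1 and Emilin2), 2 of 12 collagen-making genes (Plod2 and Adamts14) and the protease inhibitor Serpine2. Ecm1 was at 34.9 (WT), 66.9 (RARα-KO) and 159 CPM (RARα-TG), and the syndecan Sdc4 at 32.1, 20.2 and 139 CPM in the same order. Serpine2 was at 119, 337 and 5.61 CPM, and Spp1 (osteopontin) at 60.9, 138 and 22.1 CPM. The first pair was thus highest in RARα-TG and the second highest in RARα-KO. The T cell class differed in make-up between genotypes. Foxp3-high clusters held 21.1% (WT), 9.05% (RARα-KO) and 57.8% (RARα-TG) of T cells. Serpine2 was a leading gene of a cluster with 72 WT, 551 RARα-KO and 1 RARα-TG cells. The part of this make-up in the values above was not tested. A gene could also reach the minimum through a single genotype, so the counts describe the genes that reached it.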

How the data were processed

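Transcripts of 1 pooled library of the 10x Genomics 5′ kit were measured. The authors deposited counts, that is UMI counts per gene and barcode without normalization for all 730308 barcodes, with hashtag UMIs and a table of T cell receptor contigs, aligned to mm10 (GRCm38). Per the submitters' processing notes Cell Ranger 6.1.0 was used, whereas the matrix header names a different one; which of them made the counts is not known. The matrix held 46394322 gene UMIs, of which the 5600 barcodes with 500 or more UMIs held 96.5%; 0 columns were left unused.

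Genotypes were called from hashtags by HTODemux (Seurat 5.3.0, R 4.3.3, quantile 0.99). The 427 barcodes with several hashtags were removed as doublets, and from their number 249 doublets within genotypes, 5.05% of the cells with 1 hashtag, were estimated to remain. Cells were clustered with scanpy 1.11.5 under Python 3.11.15, with pandas 2.3.3, scipy 1.17.1 and numpy 2.4.6, on 2000 variable genes without the 64 genes of the rule, 30 principal components, 15 neighbors and Leiden resolution 1. Clusters in which over 50% of barcodes had a clonotype were T cells, and others were named from marker lists. Of the 155 cells of an unnamed cluster, with a median of 787 UMIs, no results are given. UMIs were summed over the cells of a class and divided by all their gene UMIs (CPM), with exact Poisson 95% intervals, and log2 ratios of CPM had exact binomial intervals. A ratio was counted where both groups together had 30 or more UMIs and it reached 2-fold; a 0 was set to a floor of 3 UMIs. On simulated data the script recovered the changed genes. Gene positions came from RefSeq for GRCm38.p6, where 36 of 36 members were matched by symbol.

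Every member was named with a level, those with 100 or more UMIs in a class also by genotype there, and 3 leading genes per related list. The members and lists were chosen with earlier results of these data known. Alternatives were an equal weight per cell, other scalings, thinning to 1000 UMIs, other depth and hashtag rules, other resolutions, and the removal of deep or clonotype-bearing cells. Removing single cells or single clusters, and keeping only cells with a hashtag, was chosen after seeing the data.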

Additional observations from a re-analysis of the deposited data

Results flagged for a closer look

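Fn1 had opposite TG/WT ratios in 2 classes, −1.20 on the log2 scale in MC38 or stromal cells, from 8 RARα-TG UMIs, and 1.46 in macrophages. The KO/WT ratio of Timp2 was 0.076 in MC38 or stromal cells, 1.18 in macrophages, where 1 cell held 113 of 177 RARα-KO UMIs, and −0.90 in T cells. The KO/WT ratio of Timp1 was 0.19 in MC38 or stromal cells and −0.92 in macrophages. With 1 sample per genotype, the differences between classes were not tested.

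The 58 neutrophils, which entered no comparison of genotypes, had 2901 CPM of Thbs1 and 374 CPM of Timp2. Their Thbs1 was at 3076 CPM in 10 cells of WT, 2694 CPM in 37 cells of RARα-KO and 3817 CPM in 10 cells of RARα-TG, and the counting intervals of the 3 overlapped. Their Timp2 was at 756 CPM (423 to 1248, 15 UMIs) in WT, 338 CPM (221 to 496, 26 UMIs) in RARα-KO and 116 CPM (14.0 to 418, 2 UMIs) in RARα-TG, and the WT and RARα-TG intervals did not overlap. The 146 MC38 or stromal cells without a hashtag, which belong to no genotype, had 12710 CPM of the 36 genes, between the RARα-TG and WT values.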

How the results depend on the processing

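Ratios of the summed matrix genes and counts past 2-fold were computed in 226 other ways, of which 162 left the value about where it was, 63 moved it and 1 turned its sign. For single genes, 900 of 1067 values were about the same and 167 moved. All values below are log2 ratios of sums or counts of genes.

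MC38 or stromal against T cells, 7.55 as reported, was 7.03 with equal weight per cell, 7.46 without the deepest 5% of cells, 7.23 after thinning and 5.13 with T cells taken by clonotype; the count of 33 was 21 after thinning. MC38 or stromal against macrophages, 2.21, was 2.27 with equal weight, 2.40 without mitochondrial, ribosomal protein and receptor genes, and 2.13 without clonotype-bearing cells. Macrophages against T cells, 5.33, was 4.77 with equal weight, 5.14 without those genes, 5.00 after thinning, 5.43 without clonotype-bearing cells and 2.99 with T cells by clonotype.

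In MC38 or stromal cells the KO/WT sum of −0.04 was 0.0022 without the deepest cells, −0.021 without clonotype-bearing cells, 0.029 with 80% of hashtag UMIs, −0.058 without the top cells, −0.072 without 1 RARα-KO cell and 0.022 without the Gsn and Lbp cluster. Its count of 1 was 0 without the deepest cells, thinned, with 80% of hashtag UMIs or at a minimum of 100 UMIs, 2 without clonotype-bearing cells and 3 at a minimum of 10 UMIs. The TG/WT sum of 0.24 was −0.0031 with equal weight, 0.15 without the deepest cells, −0.026 thinned, 0.42 without clonotype-bearing cells, 0.12 without the top cells, 0.062 without the Gsn and Lbp cluster and 0.29 without the low-depth cluster. Its count of 3 was 5 without clonotype-bearing cells, 0 with 80% of hashtag UMIs and 1 at 100 UMIs.

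In macrophages the KO/WT sum of −0.70 was −0.53 with equal weight, −0.84 thinned, −0.59 without clonotype-bearing cells and −0.16 with 80% of hashtag UMIs, and its count of 2 was 1 without the deepest cells, thinned, with 80% of hashtag UMIs or without the top cells. The TG/WT sum of 1.15 was 1.26 with equal weight, 1.76 with 80% of hashtag UMIs and 0.96 after median centring, which left a count of 1.

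In T cells the KO/WT sum of −0.57 was −0.96 thinned and −0.30 without the Foxp3-high clusters. Its count of 2 was 1 without the deepest cells or thinned, 7 by clonotype, 5 at 10 UMIs, and 0 at 100 UMIs or without the Foxp3-high clusters. The TG/WT sum of 1.20 was 0.95 with equal weight, 0.73 thinned and −0.31 by clonotype, a set that takes in clonotype-bearing cells of MC38 and other clusters. Its count of 2 was 1 with equal weight, at 100 UMIs or without the Foxp3-high clusters, 0 thinned and 8 by clonotype. The cause was not tested where a value moved.

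The 80% hashtag rule kept 1042 of 1930 WT cells. Signs of single genes turned in 34 of 391 values for KO/WT and 37 of 389 for TG/WT in MC38 or stromal cells, and in 2 of 55 and 0 of 54 in macrophages. No cluster had fibroblast, pericyte or endothelial markers among its leading genes in the way that the planned removal needed, so that removal gave no value. No paired analysis was possible because each genotype was 1 sample. Depth limits the 23 RARα-TG cells of the MC38 or stromal class and most matrix genes in T cells.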
